A study of Homo sapiens with 8 samples.

Results

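The genes examined here are 38 genes of DNA synthesis and the replication fork, measured by RNA sequencing in LNCaP cells, an androgen-responsive line established from a human prostate carcinoma metastasis. They were chosen by name for what their proteins do, with earlier results of these data known. They comprise DNA polymerases, the sliding clamp and its loaders, and the GINS complex with CDC45. Fork protection factors, Okazaki fragment enzymes, nucleotide supply enzymes and histone chaperones are also included. All 38 were found among the 36474 genes of the count table, and all 38 were among the 21071 genes with enough reads to test, the lowest count of any of them in a library being 170, for POLE2. The cells had been starved of serum and calcium for several hours before recombinant ASPN (asporin, a protein that stromal cells secrete into the matrix) was added at 100 ng/mL. The study asked how the cells responded to the protein. RNA was taken at 0 h (2 libraries), 12 h (3 libraries) and 24 h (3 libraries). The labels call these biological replicates and describe wells plated side by side, so p-values measure the spread between such samples. Libraries kept in the medium for 12 or 24 h without ASPN were not analysed here, so time in starvation medium and ASPN cannot be told apart in any comparison.

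A replication fork is opened by the CMG helicase, in which the MCM ring is joined by CDC45 and the GINS complex. Polymerase alpha-primase lays down primers, polymerase epsilon extends the leading strand and polymerase delta the lagging strand, both held to DNA by the ring-shaped clamp PCNA that the RFC complex loads. Okazaki fragments are then trimmed and ligated, and histones are placed on the new strands by chromatin assembly factor 1. Transcripts of many of these proteins rise at the entry into S phase through E2F transcription factors, and starved or resting cells hold them low until they re-enter the cycle.

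Library totals ran from 73406825 to 96962135 counts, and mitochondrial genes took 6.20% to 7.32% of them. Levels are given in CPM, a gene's count relative to the scaled size of its library. The LNCaP marker genes KLK3, KLK2, TMPRSS2, FOLH1 and HOXB13 were all detected and summed to 3370 to 3420 CPM at 0 h, about 3810 in each library at 12 h and 3830 to 3990 at 24 h. Among markers of other cells, 3 immune markers summed to at most 0.138 CPM and 2 endothelial markers to at most 0.0573, and the fibroblast markers to 20 to 22.6 CPM in all groups, nearly all of it COL1A1 (COL1A2 was not analysed here). Of the 5 LNCaP markers, 4 were higher at 12 h at an adjusted p of at most 0.05, against 4.85% of all tested genes. FOLH1 was not higher than at 0 h (-0.083 on the log2 scale, adjusted p = 0.219). At 24 h all 5 were higher than at 0 h, against 7.82% of all tested genes. These marker values moved along with the changes below, and their part in them was not tested. Because whole cultures were measured, more cells carrying a transcript and more of that RNA in each cell cannot be told apart.

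Many of the fork genes were higher after 12 and 24 h of ASPN than at 0 h, mostly by small amounts, while 16 of the 38 did not pass at 12 h and 18 did not at 24 h. Of the 38 genes, 22 were higher at 12 h than at 0 h at an adjusted p of at most 0.05 (edgeR quasi-likelihood test, adjusted over all genes tested), where 4.85% of all tested genes were higher. None was lower, where 6.75% of all tested genes were. At 24 h, 20 were higher than at 0 h against 7.82% of all tested genes, and 0 were lower against 8.49%. Both comparisons use the same 0 h libraries. The genes were chosen with earlier results of these data known, so the shares are a description and no independent test of the set. The median log2 fold change over all 38 genes was 0.21 at both times, against -0.001 and -0.003 over all tested genes, and values ran from -0.058 to 0.77 (5 of them below 0) at 12 h and from -0.061 to 1.03 (3 below 0) at 24 h. A change of at least 1.5-fold was reached by GINS2 and CLSPN at 12 h (0.489% of all tested genes) and by CLSPN, DTL and GINS2 at 24 h (1.10%). The treated libraries all lay above both 0 h libraries for 25 of the 38 genes at 12 h and for 28 at 24 h, where 17.3% and 21.5% of all tested genes did so.

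**Figure D1:**
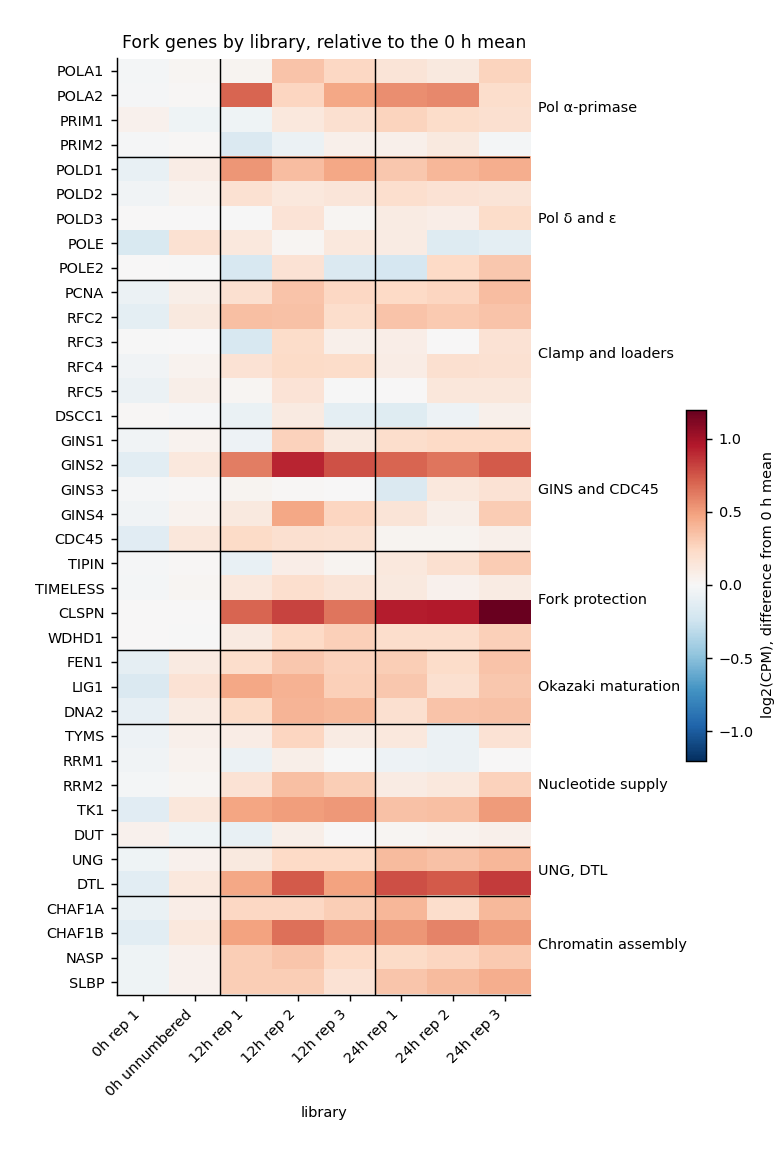
Each row is 1 of the 38 genes, grouped by role, and each column 1 library. Color gives log2(CPM) minus the mean of the 2 libraries at 0 h, and CLSPN, DTL, GINS2 and CHAF1B stand out while most rows change little.

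The number of genes that passed rested in good part on 1 library. Replicate 1 at 0 h was lower than the other 0 h library, whose replicate number no label carries, for 32 of the 38 genes, and by more than 10% for 12 of them (31.6%, against 22.7% of all tested genes with counts in both). The median log2 difference between these libraries was -0.092 over the 38 genes, while over those 20893 tested genes it was 0.01 and 10080 genes were lower. POLE, the catalytic subunit of polymerase epsilon, had 25.3 CPM in replicate 1 and 32.7 CPM in the unnumbered library, and LIG1 10.1 and 12.9. Without replicate 1, a fit that takes the lone 0 h library to vary like the other groups called 8 of the 38 genes higher at 12 h (1.1% of all genes tested in that fit) and 11 at 24 h (3.06%), with medians of 0.16 at both times, and none lower. The 8 genes were POLD1, GINS2, CLSPN, RRM2, TK1, DTL, CHAF1B and NASP. The 11 at 24 h were POLD1, PCNA, GINS2, CLSPN, TK1, UNG, DTL, CHAF1A, CHAF1B, NASP and SLBP. A fit to the 0 and 12 h libraries alone called 15 genes at 12 h, without POLA2, POLD2, RFC4, GINS4, TIMELESS, WDHD1 and UNG. The share of all tested genes called in that fit is not given here.

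Promoters of the genes were read from RefSeq on build GRCh38.p14, which held 34 of the 38, each from 250 bases before to 50 after the start. An E2F word, TTTCCCGC, TTTGGCGC, TTTCGCGC or TTTGCCGC on either strand, was found in 13 of the 34 (38.2%), against 3.33% of 27305 promoters in all and 4.79% of those of protein-coding genes in the count table. CCAAT was found in 18 of the 34 (52.9%), against 35.7% of all promoters. TTTGAA, the CHR word of genes expressed late in the cycle, was found in 1 (2.94%), against 15.4%. No E2F word contains either of the other words, and a match in letters does not show that a factor binds. The stretches below run from 100 bases before the start to 10 bases from it, 5′ to 3′ on the strand of the gene, with the E2F word in capitals. The first 3 belong to the genes that passed 1.5-fold at 24 h, CLSPN (chr1:35769969-35770078, minus strand), DTL (chr1:212035648-212035757, plus strand) and GINS2 (chr16:85688945-85689054, minus strand). The other 3 carry a word as well but belong to genes that passed in neither comparison with 0 h, GINS3 (chr16:58392371-58392480, plus strand), POLE (chr12:132687333-132687442, minus strand) and RFC3 (chr13:33818049-33818158, plus strand).
CLSPN: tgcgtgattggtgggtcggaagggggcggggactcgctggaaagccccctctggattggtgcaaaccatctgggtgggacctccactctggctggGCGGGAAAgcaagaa
DTL: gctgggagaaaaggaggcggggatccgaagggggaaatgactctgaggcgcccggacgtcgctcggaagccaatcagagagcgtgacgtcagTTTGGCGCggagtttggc
GINS2: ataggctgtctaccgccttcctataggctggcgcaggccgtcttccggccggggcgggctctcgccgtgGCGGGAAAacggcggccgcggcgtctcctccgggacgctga
GINS3: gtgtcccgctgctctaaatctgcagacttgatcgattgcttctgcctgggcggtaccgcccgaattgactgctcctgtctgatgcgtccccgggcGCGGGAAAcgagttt
POLE: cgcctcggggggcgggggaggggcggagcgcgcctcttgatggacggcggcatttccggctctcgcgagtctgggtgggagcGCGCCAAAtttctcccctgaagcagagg
RFC3: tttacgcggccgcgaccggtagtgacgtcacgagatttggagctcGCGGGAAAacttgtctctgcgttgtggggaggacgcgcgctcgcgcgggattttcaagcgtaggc

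The E2F word was found both in genes that rose and in genes that did not pass. Of the 13 genes with an E2F word, 6 were higher at 12 h and 7 at 24 h at an adjusted p of at most 0.05, with median log2 fold changes of 0.21 and 0.23. Of the 21 genes whose promoter held none, 14 and 12 were higher, with medians of 0.21 and 0.22. Of all tested genes, 4.85% were higher at 12 h and 7.82% at 24 h. CLSPN and GINS3 carry the same 8 letters at the same distance from the start, the first base of the word lying 5 bases before it in both, and their changes at 24 h were 1.03 and 0.047 on the log2 scale. CHAF1B and TK1, which rose at both times, held no such word in the 300 bases searched.

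Fork protection factors held the gene with the largest change at 24 h. CLSPN (claspin, the adaptor that carries the checkpoint signal from ATR to CHK1 at stalled forks) had 6.71 CPM in both libraries at 0 h, 10.9, 11.8 and 10.5 CPM at 12 h, and 12.9, 13 and 15.3 CPM at 24 h. No value of 1 time point overlapped those of another. The log2 fold change was 0.72 ± 0.095 (SE, adjusted p = 3.38e-06) at 12 h and 1.03 ± 0.095 (adjusted p = 1.22e-09) at 24 h, a 2.04-fold rise, and it was 0.72 and 1.02 without replicate 1 at 0 h. WDHD1, the AND-1 protein that links the helicase to polymerase alpha, had 19.6 and 19.5 CPM at 0 h, 21.1, 23.1 and 23.9 at 12 h, and 22.6, 22.6 and 23.9 at 24 h. All 6 treated libraries lay above the 0 h libraries, and the changes were 0.22 (adjusted p = 0.0343) and 0.24 (adjusted p = 0.0143). Without replicate 1 at 0 h the WDHD1 changes were 0.22 and 0.24 as before, but with 1 library at 0 h they did not pass (adjusted p = 0.213 and 0.106), and both calls were also lost without the unnumbered 0 h library, as was the 24 h call without 24 h replicate 3. TIMELESS, the partner of TIPIN in the complex that keeps helicase and polymerase together, rose by 0.16 at 12 h (adjusted p = 0.029, and 0.268 without replicate 1 at 0 h) and stood 0.087 above 0 h at 24 h (adjusted p = 0.272). TIPIN showed the other order, at 0.011 and 0.21, and passed at neither time (adjusted p = 0.96 and 0.0771).

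In the GINS complex, 1 of 4 subunits carried most of the change. GINS2 had 6.82 and 8.10 CPM at 0 h, 11.4, 14 and 12.6 CPM at 12 h, and 12.1, 11.6 and 12.4 CPM at 24 h. Every treated library was higher than either 0 h library, and the ranges at 12 and 24 h overlapped. The log2 fold change was 0.77 ± 0.097 (adjusted p = 1.7e-06), or 1.70-fold, at 12 h and 0.69 ± 0.097 (adjusted p = 3.09e-06), or 1.61-fold, at 24 h. Without replicate 1 at 0 h these were 0.65 and 0.56, the second being under 1.5-fold. GINS1 had 23.6 and 25.1 CPM at 0 h, 23.3, 29.5 and 26.4 at 12 h, and 28.2, 28.7 and 28.7 at 24 h. Its 12 h libraries surrounded the 0 h values, and only the 24 h change of 0.23 passed (adjusted p = 0.0286), a call lost without any 1 of replicate 1 at 0 h and the 24 h replicates, with adjusted p up to 0.311. GINS4 rose by 0.29 at 12 h (adjusted p = 0.0383) and stood 0.18 above 0 h at 24 h (adjusted p = 0.219). That 12 h call was lost without either 0 h library, 12 h replicate 2 or 3, or 24 h replicate 1, with adjusted p up to 0.372. GINS3 had 6.37 and 6.46 CPM at 0 h and 6.44 to 6.55 CPM at 12 h, and spread more widely at 24 h, from 5.68 to 7.22 CPM. Its changes were 0.015 and 0.047 (adjusted p = 0.961 and 0.846). CDC45, which joins GINS and MCM in the helicase, had changes of 0.20 and 0.037 and did not pass (adjusted p = 0.101 and 0.824). Without replicate 1 at 0 h its changes were 0.062 and -0.10. Over 16 alternative fits, leaving out each library among them, CDC45 ran from 0.062 to 0.35 at 12 h and from -0.10 to 0.18 at 24 h. Its 12 h libraries all lay above both 0 h libraries.

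**Figure D2:**
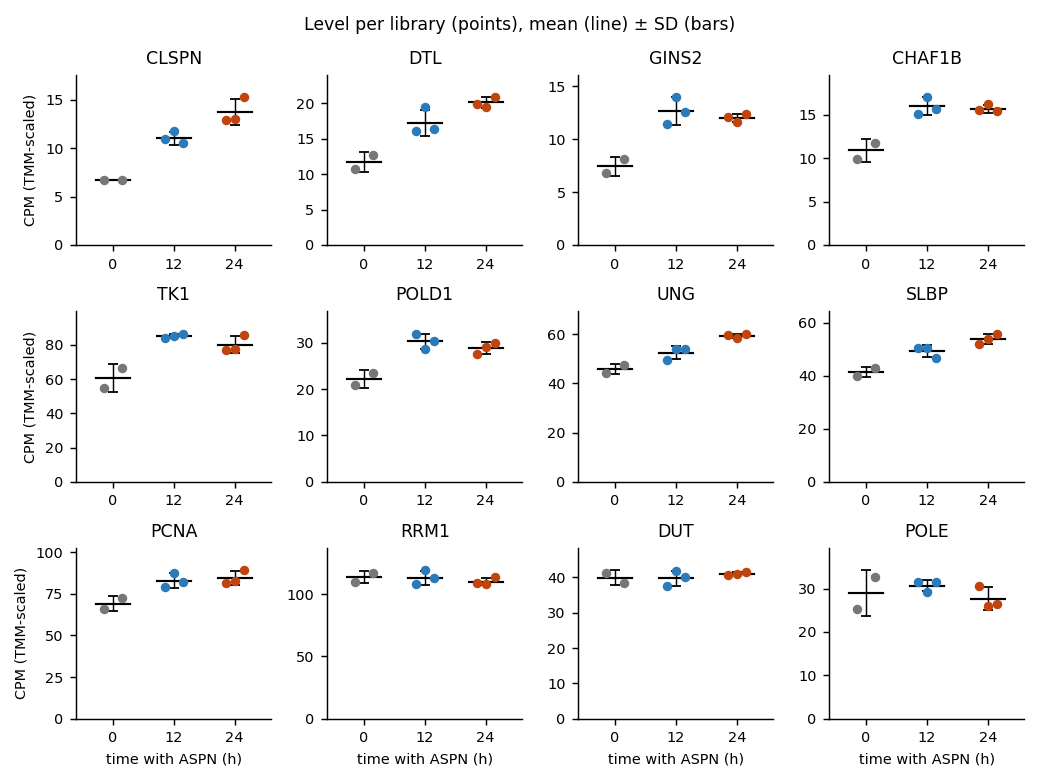
CPM of 12 genes in each library (points), with the mean (line) and SD (bars), at 0, 12 and 24 h with ASPN, on axes that start at 0. CLSPN rises from 6.71 CPM at 0 h to 12.9 to 15.3 CPM at 24 h, while RRM1, DUT and POLE have overlapping groups.

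DTL and UNG were the genes with other roles at the fork, and both rose. DTL, the substrate receptor of the CRL4-Cdt2 ubiquitin ligase that degrades CDT1 on DNA-bound PCNA, had 10.7 and 12.7 CPM at 0 h, 16.1, 19.4 and 16.3 CPM at 12 h, and 19.9, 19.4 and 20.9 CPM at 24 h. All treated libraries exceeded the 0 h libraries. The log2 fold change was 0.56 ± 0.087 (adjusted p = 3.04e-05) at 12 h and 0.78 ± 0.087 (adjusted p = 5.43e-08), or 1.72-fold, at 24 h, and 0.44 and 0.65 without replicate 1 at 0 h. UNG, the glycosylase that removes uracil from DNA, had 44.3 and 47.3 CPM at 0 h, 49.5, 54.1 and 54.0 at 12 h, and 59.5, 58.5 and 60.2 at 24 h. The 3 time points did not overlap. UNG rose by 0.20 at 12 h (adjusted p = 0.0147) and by 0.38 ± 0.055 at 24 h (adjusted p = 5.91e-06). The 12 h call was lost without replicate 1 at 0 h (adjusted p = 0.286) and without 12 h replicate 3, and the 24 h call was kept without any 1 library (largest adjusted p = 0.00169).

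All 4 genes of chromatin assembly and histone supply rose at both times. CHAF1B, the p60 subunit of chromatin assembly factor 1, had 9.90 and 11.8 CPM at 0 h, 15.1, 17.1 and 15.7 at 12 h, and 15.6, 16.3 and 15.4 at 24 h. The 12 and 24 h libraries formed 1 range above both 0 h values. Its log2 fold change was 0.56 ± 0.084 (adjusted p = 2.42e-05) at 12 h and 0.54 ± 0.084 (adjusted p = 1.7e-05) at 24 h. SLBP, which binds the stem-loop of histone mRNAs and is needed for their processing, had 39.9 and 42.8 CPM at 0 h, 50.6, 50.6 and 46.7 at 12 h, and 51.9, 53.7 and 55.9 at 24 h. It was highest in all 24 h libraries, with changes of 0.25 (adjusted p = 0.00262) and 0.38 (adjusted p = 7.83e-06). CHAF1A, the p150 subunit, rose by 0.27 and 0.33 (adjusted p = 0.00568 and 0.000304). NASP, a chaperone of histones H3 and H4, rose by 0.29 and 0.26 (adjusted p = 0.000113 and 0.000181). Without replicate 1 at 0 h, the 12 h calls of SLBP and CHAF1A were lost (adjusted p = 0.115 and 0.259) and the 4 calls at 24 h were kept. NASP has a processed pseudogene, NASPP1, that matches 64.1% of its transcript at 95.6% identity and was counted 17 times over the 8 libraries, against 83874 counts for NASP.

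Nucleotide supply was divided. TK1, the salvage enzyme thymidine kinase, had 54.8 and 66.3 CPM at 0 h, 83.9, 85.3 and 86.6 at 12 h, and 76.8, 77.6 and 86.0 at 24 h. The treated libraries were all above the 0 h libraries, of which replicate 1 was at 82.6% of the other. TK1 rose by 0.50 ± 0.062 (adjusted p = 1.91e-06), or 1.41-fold, at 12 h and by 0.41 ± 0.062 (adjusted p = 1.36e-05) at 24 h, and by 0.36 and 0.27 without replicate 1 at 0 h. RRM2, the small subunit of ribonucleotide reductase whose amount limits the enzyme in S phase, had 74.9 and 77.2 CPM at 0 h, 86.0, 97.8 and 93.4 at 12 h, and 81.6, 83.1 and 92.3 at 24 h. It was above 0 h in all 6 treated libraries, with changes of 0.28 (adjusted p = 0.000832) and 0.17 (adjusted p = 0.0329). The 24 h call was lost without either 0 h library or 24 h replicate 3 (adjusted p up to 0.263). RRM1, the large subunit of the same enzyme, had changes of -0.006 and -0.045 (adjusted p = 0.962 and 0.63) and overlapped at all times. DUT, the dUTPase, had changes of -0.005 and 0.040 (adjusted p = 0.973 and 0.73). TYMS, thymidylate synthase, had changes of 0.15 and 0.080 (adjusted p = 0.201 and 0.546). Its value is uncertain because 47.9% of its exon bases are also exonic in genes on the other strand, mostly ENOSF1 (39.9%), and how the reads were counted by strand was not stated.

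Okazaki fragment enzymes all rose, by similar amounts. DNA2, the nuclease-helicase that cuts long flaps, had 6.90 and 7.95 CPM at 0 h, 8.66, 9.85 and 9.69 at 12 h, and 8.44, 9.41 and 9.46 at 24 h. FEN1, the flap endonuclease, had 38.9 and 45.4 CPM at 0 h, 48.7, 52.6 and 50.8 at 12 h, and 51.7, 48.9 and 53.4 at 24 h. For both genes the treated libraries lay above the 0 h libraries, the nearest 0 h value being that of the unnumbered library. DNA2 rose by 0.34 (adjusted p = 0.0192) and 0.30 (adjusted p = 0.0369), and FEN1 by 0.27 (adjusted p = 0.00321) and 0.29 (adjusted p = 0.00101). LIG1, the ligase that seals the fragments, rose by 0.38 (adjusted p = 0.00459) and 0.28 (adjusted p = 0.0324). All 3 genes were at least 10% lower in replicate 1 at 0 h than in the other 0 h library. Without it none passed at either time. The changes were then 0.24 and 0.19 for DNA2 (adjusted p = 0.382 and 0.443), 0.16 and 0.17 for FEN1 (adjusted p = 0.273 and 0.144), and 0.21 and 0.10 for LIG1 (adjusted p = 0.358 and 0.679). The calls of DNA2 and LIG1 at 24 h were also lost without 24 h replicate 3, and without replicate 2 (DNA2) or 1 (LIG1) of that time. The 12 h call of DNA2 was lost without 12 h replicate 2 or 3.

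Of the subunits of polymerases delta and epsilon, POLD1 and POLD2 rose and the other 3 did not pass. POLD1, the catalytic subunit of polymerase delta, had 20.8 and 23.5 CPM at 0 h, 32.0, 28.6 and 30.4 at 12 h, and 27.6, 29.2 and 30.0 at 24 h. The lowest treated library was above the higher 0 h library. Its change was 0.46 ± 0.068 (adjusted p = 2.05e-05), or 1.37-fold, at 12 h and 0.39 ± 0.068 (adjusted p = 8.72e-05) at 24 h, and both calls were kept without replicate 1 at 0 h (adjusted p = 0.00864 and 0.0206). POLD2, an accessory subunit, had 239 and 253 CPM at 0 h, 280, 269 and 272 at 12 h, and 283, 278 and 274 at 24 h. It rose by 0.15 (adjusted p = 0.0186) and 0.18 (adjusted p = 0.00369), calls that were lost without replicate 1 at 0 h (adjusted p = 0.298 and 0.115). POLD3, another accessory subunit, had changes of 0.064 and 0.13 (adjusted p = 0.662 and 0.239). In polymerase epsilon neither POLE (0.087 and -0.061, adjusted p = 0.601 and 0.716) nor POLE2 (-0.054 and 0.13, adjusted p = 0.899 and 0.701) passed. Without replicate 1 at 0 h POLE was at -0.089 and -0.24. Over 16 alternative fits, leaving out each library among them, POLE ran from -0.089 to 0.29 at 12 h and from -0.24 to 0.14 at 24 h. POLE2 was among the lowest members, at 2.18 to 3.15 CPM, and the SE of its change was 0.17.

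POLA2, the regulatory subunit of polymerase alpha, was the 1 member of alpha-primase that passed in the main fit. It had 2.42 and 2.48 CPM at 0 h, 3.98, 2.92 and 3.39 at 12 h, and 3.60, 3.65 and 2.83 at 24 h. All treated libraries were higher, but they spread widely. The changes were 0.48 ± 0.16 (adjusted p = 0.0463) and 0.46 ± 0.16 (adjusted p = 0.0452). Neither call survived leaving out either 0 h library, adjusted p being 0.309 and 0.255 without replicate 1, and each was lost under further choices, DESeq2 among them at 24 h. Exons of other annotated genes cover 21.3% of the POLA2 exon bases, so its reads are uncertain too. The shared part was 23.4% in GINS4, 21.1% in TIPIN, 19.1% in PRIM1 and 14.5% in DUT. PRIM1, the primase catalytic subunit, had 10 and 9.27 CPM at 0 h, 9.29, 10.5 and 11 at 12 h, and 11.6, 11.2 and 11 at 24 h. The 24 h libraries were all above 0 h, but the change of 0.22 did not pass (adjusted p = 0.096), nor did the 0.092 at 12 h (adjusted p = 0.605). POLA1, the polymerase subunit itself, stood 0.21 and 0.18 above 0 h (adjusted p = 0.0632 and 0.1). Its treated libraries all lay above the 0 h libraries, and it passed in 5 of 16 alternative fits at 12 h and 2 at 24 h. PRIM2, the large primase subunit, had changes of -0.058 and 0.057 (adjusted p = 0.771 and 0.757), and its near-identical pseudogene PRIM2BP was counted 9 times over the 8 libraries.

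Among the clamp and its loaders, PCNA and RFC2 rose at both times. PCNA had 65.9 and 72.4 CPM at 0 h, 78.9, 87.7 and 82.0 at 12 h, and 81.7, 82.8 and 89.2 at 24 h. RFC2, a small subunit of the clamp loader, had 22.8 and 26.7 CPM at 0 h, 31.6, 31.5 and 28.6 at 12 h, and 31.2, 30.6 and 31.3 at 24 h. Treated and untreated libraries did not overlap for either gene. PCNA rose by 0.26 ± 0.055 (adjusted p = 0.00142) and 0.29 ± 0.055 (adjusted p = 0.000233), and RFC2 by 0.31 (adjusted p = 0.00227) and 0.33 (adjusted p = 0.00059). Without replicate 1 at 0 h the PCNA rise passed at 24 h only (adjusted p = 0.114 and 0.0347) and that of RFC2, then 0.20 and 0.21, at neither time (adjusted p = 0.208 and 0.0925). RFC4 rose by 0.21 at 12 h (adjusted p = 0.0321, and 0.332 without replicate 1 at 0 h) and stood 0.16 above 0 h at 24 h (adjusted p = 0.098). The 12 h call of RFC4, like those of TIMELESS and WDHD1, was also lost without 12 h replicate 2 or 3. RFC3 (0.041 and 0.089), RFC5 (0.064 and 0.093) and DSCC1, a subunit of the alternative loader used in cohesion (-0.027 and -0.048), did not pass at either time, with adjusted p from 0.439 to 0.895.

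**Figure D3:**
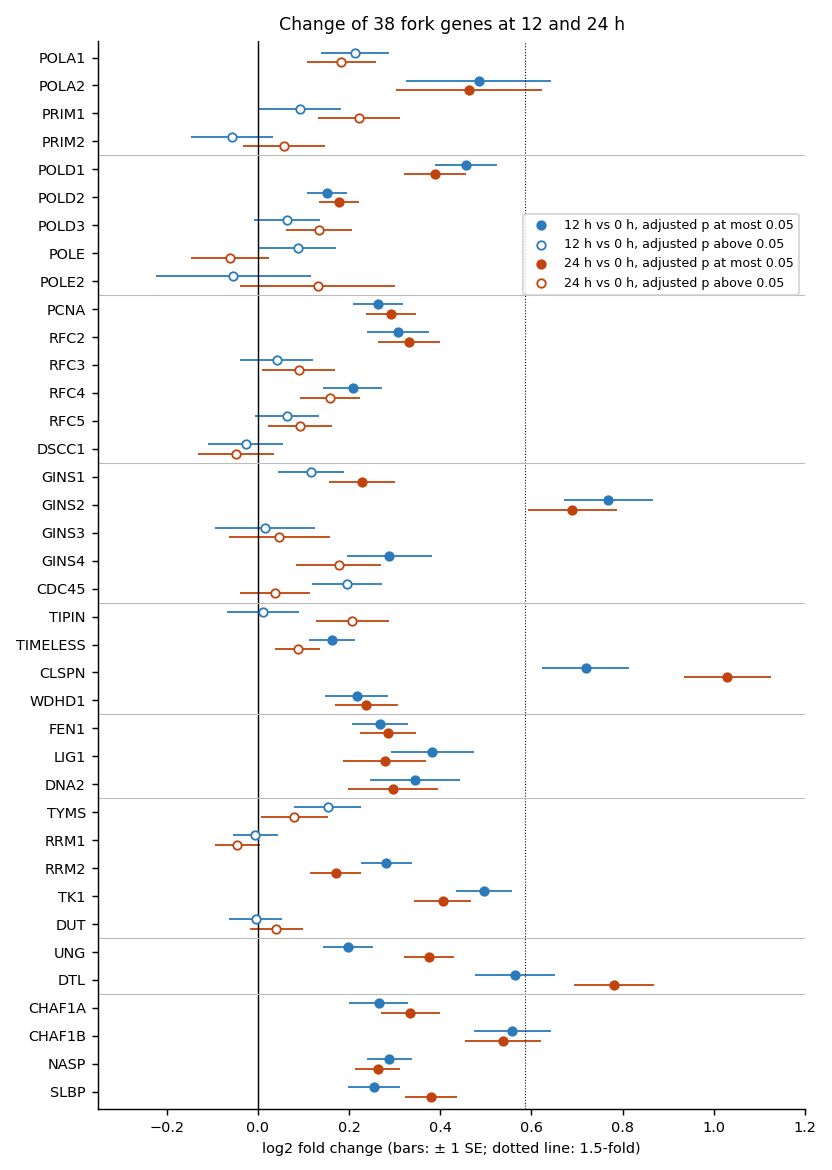
The log2 fold change of each of the 38 genes against 0 h at 12 h (blue) and 24 h (orange), with bars of 1 SE, filled where the adjusted p was at most 0.05. The 24 h point of CLSPN, at 1.03, lies farthest to the right, and no filled point lies left of 0.

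The ratio of CPM between subunits of 1 complex shifted in most of the pairs compared. For each complex, the subunits with the highest and the lowest change at 24 h were set against each other, and since the pairs were picked by that change, the ratios are a description. GINS2 over GINS3 was 1.07 and 1.25 at 0 h, 1.74, 2.17 and 1.96 at 12 h, and 2.13, 1.65 and 1.72 at 24 h. RRM2 over RRM1 was 0.678 and 0.658 at 0 h, 0.796, 0.822 and 0.826 at 12 h, and 0.746, 0.770 and 0.810 at 24 h. The ratio of RRM2 to RRM1 differed little between the 0 h libraries, although both genes were lower in replicate 1. POLD1 over POLD3 averaged 1.19 at 0 h, 1.57 at 12 h and 1.42 at 24 h. RFC2 over RFC3 averaged 0.953, 1.16 and 1.13, CHAF1B over CHAF1A 0.365, 0.447 and 0.422, and POLA2 over PRIM2 0.245, 0.361 and 0.324. In these 6 pairs no treated library overlapped the 0 h libraries. The choice of pairs favors such a separation, and its share among other gene pairs was not computed. For RFC2 over RFC3 the gap was small, with 0.88 in replicate 1 at 0 h and 1.03 in the unnumbered library. The 12 h libraries were at 1.39, 1.04 and 1.06. The ratio of POLE2 to POLE overlapped at both times, and that of TIPIN to TIMELESS averaged 0.217, 0.195 and 0.236 and overlapped at 24 h.

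**Figure D4:**
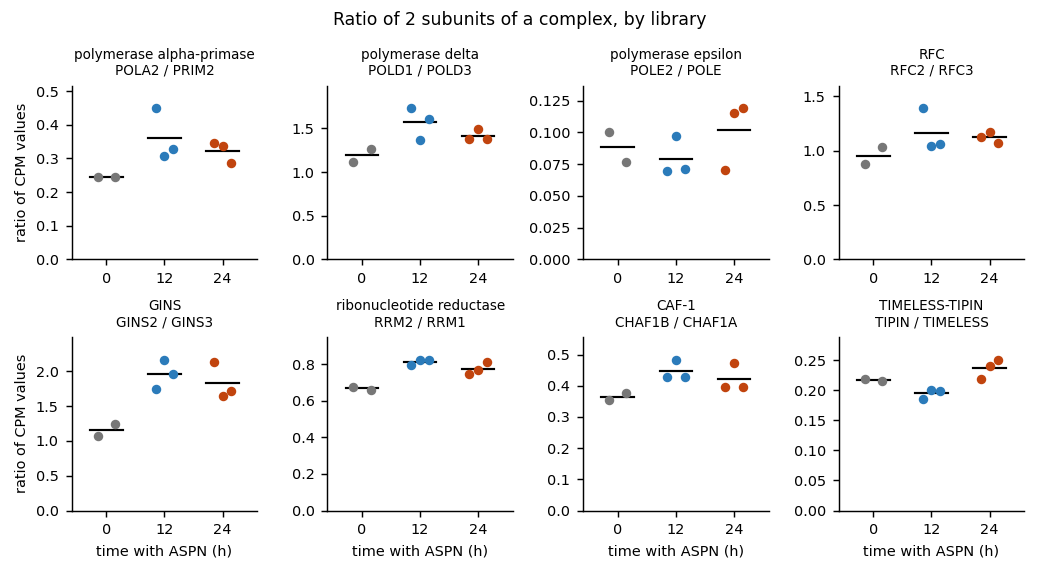
The ratio of the CPM of 2 subunits of each complex in every library (points) with the mean of each time point (line), on axes that start at 0. GINS2 over GINS3 averages 1.16 at 0 h, 1.96 at 12 h and 1.83 at 24 h, and the groups of POLE2 over POLE overlap.

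Levels between genes were compared per kilobase of the reference transcript. At 0 h POLD2 was highest on this scale, at 153 CPM per kb, followed by PCNA (54.2), TK1 (42.3), RRM1 (36.3) and NASP (33.2). The order depends on the length used. Annotated exons of POLD2 cover 8.005 kb against a reference transcript of 1.609 kb, and those of NASP 8.304 kb against 3.225 kb. For PCNA these lengths were 1.403 and 1.276 kb, and for TK1 1.845 and 1.431 kb. POLA2 (0.691), CLSPN (0.788), POLE2 (1.49) and DNA2 (1.74) were lowest. CLSPN, DTL and GINS2 all began under 3 CPM per kb, at 0.788, 2.65 and 2.84, but so did POLE2 and GINS3 (2.92), which did not pass at either time. At 24 h CLSPN was at 1.61 CPM per kb, DTL at 4.56 and GINS2 at 4.57.

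The fork genes as a set were about as high at 12 h as at 24 h. Between 24 and 12 h, 2 of the 38 genes were higher, CLSPN by 0.31 (adjusted p = 0.0254) and UNG by 0.18 (adjusted p = 0.0402), against 1.12% of all tested genes. None was lower, against 1.61%, and none reached 1.5-fold, against 0.0759%. The median over the 38 genes was 0.019 and values ran from -0.16 to 0.31. The libraries of the 2 times did not overlap for 7 of the 38 genes, a share near the 19.6% of all tested genes. Besides CLSPN and UNG these were DTL, SLBP, TIPIN, CDC45 and TIMELESS, none of which passed (adjusted p from 0.125 to 0.485). The CLSPN call was lost without 12 h replicate 1 or 3 or 24 h replicate 2 or 3 (adjusted p up to 0.251), and the UNG call without 12 h replicate 1 or 3 or any 1 of the 24 h replicates (adjusted p up to 0.184). Without 12 h replicate 1, RRM2 was lower at 24 h than at 12 h (adjusted p = 0.0447). Against 0 h, 19 genes passed at both times. GINS4, RFC4 and TIMELESS passed at 12 h only and GINS1 at 24 h only, but none of these 4 differed between 24 and 12 h at an adjusted p of at most 0.05.

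Of 29 fork genes outside the set, 6 were higher and 1 was lower at each time than at 0 h, with medians of 0.016 at 12 h and 0.041 at 24 h. Of all tested genes, 4.85% at 12 h and 7.82% at 24 h were higher, and 6.75% and 8.49% were lower. MCM10, which helps to activate the helicase, had 9.42 and 9.60 CPM at 0 h, 13, 17.8 and 16.3 at 12 h, and 19.4, 17.5 and 19.3 at 24 h. It rose by 0.72 (adjusted p = 5.38e-06) and 0.98 (adjusted p = 9.56e-09), without overlap between treated and 0 h libraries. ASF1B, a histone chaperone that hands H3 and H4 to chromatin assembly factor 1, had 14.7 and 17.5 CPM at 0 h, 21.7 to 24.9 at 12 h and 22.1 to 25.7 at 24 h, a rise of 0.56 and 0.58 (adjusted p = 1.15e-05 and 2.29e-06). The gene that fell was RRM2B, the p53-inducible small subunit of ribonucleotide reductase, with 134 and 126 CPM at 0 h, 86.4, 96.0 and 98.1 at 12 h, and 94.2, 93.9 and 102 at 24 h. RRM2B fell by 0.48 (adjusted p = 2.39e-07) and 0.43 (adjusted p = 3.42e-07) on the log2 scale, while RRM2 rose. RNASEH2A was at or under 0.238 CPM in every library, with a change of -0.54 at 24 h that did not pass (adjusted p = 0.61). Exon overlap with other genes was not checked for genes outside the set, so its level is uncertain. The remaining subunits of the complexes above, RFC1, POLD4, POLE3, POLE4 and RBBP4, had changes from -0.19 to 0.13 and none passed.

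Neighboring cell cycle genes were counted beside them. All 6 genes of the MCM2-7 ring were higher at both times, where 4.85% and 7.82% of all tested genes were. Their medians were 0.54 and 0.71, above the 0.21 of the 38 fork genes. In replicate 1 at 0 h all 6 were lower than in the unnumbered library, by a median of 0.24 on the log2 scale. Of 12 genes of G2 and mitosis, 1 was higher at 12 h (median 0.022), against 4.85% of all tested genes. At 24 h, 7 of these 12 were lower than at 0 h (median -0.20), against 8.49% of all tested genes. Between 24 and 12 h, 10 of them were lower (median -0.24), against 1.61%.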

How the data were processed

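The authors trimmed the reads (Cutadapt), aligned them to GRCh38 (STAR), assigned them to GENCODE genes (featureCounts) and left 1 time-0 library out. How the counting treated strand, read pairs and multi-mapped reads was not given in the sources used here, so overlapping genes and near-identical copies can share reads. The deposited values are raw counts per gene. Columns were matched to groups through their names. The second time-0 column carries a replicate number that no time-0 label has and was used as an unnumbered time-0 library. Pairs of libraries within a group differed by more than sampling noise (chi-square per degree of freedom 5.32 to 15.2).

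Counts were tested with edgeR 4.0.16 in R 4.3.3 (quasi-likelihood F test, robust, TMM scaling, filterByExpr, 1 coefficient per time point over all 8 libraries), and p-values were adjusted by Benjamini-Hochberg over 21071 genes. The biological coefficient of variation was 5.59%. The procedure was also run on counts simulated from its own model, with changes in the 24 h group alone. That run cannot show how it behaves when the 0 h libraries differ as they do here. The 38 genes and the lists were chosen with earlier results of these data known. Values by library are given for the 2 members of each role with the largest absolute change between 24 and 0 h and for PCNA, and other members are given by their changes. Alternatives were RLE and upper-quartile scaling, no count filter or a minimum mean of 100 normalized counts, testing with DESeq2 1.42.0, only the time points compared, protein-coding genes alone, a replicate block (also, chosen after seeing the data, by column number over all libraries), a fold threshold of 1.5 and leaving out each library. Coordinates and exons were checked against GENCODE release 44. Promoters were taken from RefSeq by symbol. POLD3, DSCC1, GINS4 and DNA2 had no entry. Of the LNCaP markers chosen for the check, 5 are used and the rest are not reported here.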

Additional observations from a re-analysis of the deposited data

How the results depend on the processing

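Of the alternatives that kept all libraries, each scaling, each count filter, DESeq2, the fit to the compared times alone and protein-coding genes alone gave 15 to 23 fork genes higher at 12 h, 19 to 21 at 24 h and 2 between 24 and 12 h, and 0 lower. The lowest of these, 15 at 12 h, came from the fit to the compared times alone. Shares of all tested genes called under the alternatives are given only for the 1.5-fold threshold and leaving out replicate 1 at 0 h. The other counts describe the members alone. Requiring 1.5-fold as well left 2, 3 and 0 genes. Leaving out 1 library at a time gave 8 to 23 genes at 12 h, 11 to 22 at 24 h and 0 to 3 between 24 and 12 h, and both lowest counts against 0 h came without replicate 1 at 0 h. Between 24 and 12 h, the log2 change of some genes near 0 turned its sign with the library left out, running from -0.126 to 0.092 for POLA2, -0.012 to 0.071 for PCNA, -0.034 to 0.057 for WDHD1, -0.016 to 0.045 for FEN1, -0.154 to 0.001 for GINS2, -0.063 to 0.034 for CHAF1B, -0.024 to 0.047 for RFC2 and -0.108 to 0.004 for DNA2, and the cause was not tested. With a replicate block over the 12 and 24 h libraries, 2 genes passed between 24 and 12 h. The replicate numbers were not taken to pair the samples, since deviations of same-numbered libraries correlated weakly, at 0.101, 0.027 and 0.029. Other pairs ran from -0.077 to 0.052. Replicates 1 and 3 at 12 h correlated best with their own numbers, but replicate 2 at 12 h with replicate 3 at 24 h (0.052). A replicate block by the number in the column names over all 8 libraries, chosen after seeing the data and taking the second 0 h column at a number that no 0 h label has, gave 18 genes at 12 h and 16 at 24 h.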

Other observations

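Some fork genes outside the set moved as well, and these were named after their values were seen. RPA1, the large subunit of the complex that coats single-stranded DNA, rose by 0.14 at 12 h (adjusted p = 0.0383) and 0.17 at 24 h (adjusted p = 0.00669), while RPA2 had changes of 0.001 and 0.048 (adjusted p = 0.996 and 0.68). RECQL4, a helicase of replication initiation, rose by 0.29 and 0.30 (adjusted p = 0.00985 and 0.00598). It had 19.8 CPM in replicate 1 at 0 h and 25.4 in the unnumbered library. The treated libraries had 29, 26.7 and 27.1 CPM at 12 h and 27.2, 27 and 28.8 at 24 h. Its change without replicate 1 at 0 h was not examined. RNASEH2C, a subunit of the nuclease that removes ribonucleotides from DNA, rose by 0.25 at 24 h (adjusted p = 0.00579), and SUPT16H, a subunit of the histone chaperone FACT, by 0.14 (adjusted p = 0.0361). TICRR (treslin), needed to load CDC45, rose by 0.37 at 12 h (adjusted p = 0.00256) and stood 0.15 above 0 h at 24 h (adjusted p = 0.242). DTYMK, which makes thymidine diphosphate from the product of TK1, rose by 0.21 at 12 h (adjusted p = 0.0176) and fell by 0.19 from 12 to 24 h (adjusted p = 0.0376). RPA3 fell by 0.23 between those times (adjusted p = 0.0429).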
